A study of Drosophila melanogaster with 42 samples.

Results

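The notum patterning genes described here are ara, caup, mirr, eyg, toe, tup, B-H1, B-H2, pnr and ush, 10 of the 17208 genes counted, chosen by name for their role in the part of the wing disc that forms the dorsal thorax. RNA was sequenced from wing imaginal discs of third-instar Drosophila larvae that were either wild type, with library names giving w1118.csvd111, or mutant for fat, the gene of a giant cadherin that feeds into Hippo signaling and planar polarity. On a NovaSeq X Plus there were 2 wild-type libraries, 2 of Fd5-5, 5 of delta HpoC, 4 of delta HpoN+PH, 5 of delta PCP and 3 of delta D. A NovaSeq 6000 read 3 more wild-type libraries, 4 each of delta A, delta B and delta E, and 3 each of delta C and delta F. The labels call delta HpoC, delta HpoN+PH and delta PCP functional domains and delta A to delta F conserved regions. They name fat nulls without giving their label, and Fd5-5 is the genotype left over when the domains and regions are set aside. They do not say how many discs or animals made a library, so p-values measure only the spread between these libraries.

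The notum is the body wall side of the wing disc, opposite the pouch that makes the wing blade. It is specified early, when Vein, a ligand of the EGF receptor, switches on the Iroquois genes in the proximal disc, and it is then divided from medial to lateral and from anterior to posterior by transcription factors that regulate each other. Those factors set where the proneural genes achaete and scute are read, and so where the thoracic bristles form. The genes fall into 5 sets. The Iroquois homeodomain factors ara, caup and mirr separate notum from hinge and activate achaete and scute laterally. The Pax factors eyg and toe act in the central notum. The LIM homeodomain factor tup is needed for notum identity. The Bar homeodomain factors B-H1 and B-H2 mark the anterior notum. The GATA factor pnr and its partner ush, a Friend-of-GATA protein that restrains it, pattern the medial notum under Dpp.

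Positions are those of the Ensembl annotation of genome release 6 (dm6). The genes ara (FBgn0015904, 3L, 12580672 to 12596018), caup (FBgn0015919, 12609631 to 12621798) and mirr (FBgn0014343, 12693639 to 12710249) lie in a row on the plus strand, 13.6 kb and 71.8 kb apart. On the same chromosome arm but the minus strand lie eyg (FBgn0000625, 12462537 to 12468021) and toe (FBgn0036285, 12422510 to 12432668), separated by 29.9 kb. B-H2 (FBgn0004854, X, 17314581 to 17324175) and B-H1 (FBgn0011758, X, 17397478 to 17403278) are on the plus strand with 73.3 kb between them. Alone stand tup (FBgn0003896, 2L, 18859507 to 18881261, minus strand), pnr (FBgn0003117, 3R, 16026079 to 16041796, plus strand) and ush (FBgn0003963, 2L, 476220 to 540560, plus strand). The last holds cbt and a long non-coding RNA on the opposite strand and a long non-coding RNA on its own strand. Those 3 genes were read at up to 53.7, 0.645 and 65.7 CPM, and since the sources used here do not say whether strand was kept, reads of ush and of its overlapping genes may be mixed.

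Library totals ran from 19538208 to 48392354 counts. The libraries divided into 21 with at least 5.11% of their counts on the 46 symbols containing rRNA and 21 with at most 1.68%, called here the higher and lower ribosomal RNA classes. The higher class held both X Plus wild-type libraries (17.1% and 17.4%), all delta A, delta C and delta F libraries, delta B 1 to 3, delta E 4, delta HpoC 3 to 5, delta HpoN+PH 1 and delta PCP 5. The lower class held the 3 wild-type libraries of the 6000 (0.842% to 1.52%) and the rest. For Fd5-5, delta A, delta C, delta D and delta F the class and the genotype therefore cannot be told apart in the comparison with wild type. Markers of differentiated muscle, all 6 of which were read in every group, also moved with libraries. Their summed level was 639 and 1161 CPM in the X Plus wild type, 324 to 539 CPM in delta A, 478 CPM in delta PCP 5 and 359 CPM in delta C 1, against 12.1 to 26.5 CPM in the 6000 wild type and at most 182 CPM in any library not named here. The 6 wing pouch markers summed to 319 and 377 CPM in the X Plus wild type and to 1206 to 1588 CPM in the 6000 wild type, and 5 leg and haltere markers to 262 and 280 CPM and to 394 to 574 CPM. The gene Dll is in both lists. The leg and haltere marker Ubx averaged 11.7 CPM in the X Plus wild type and 13.4 CPM in the 6000 wild type. It reached 127 CPM in delta C, 112 CPM in delta E, 100 CPM in delta F, 96.1 CPM in delta HpoC and 94.2 CPM in delta HpoN+PH. In the other groups Ubx was at most 40.9 CPM. Whether these libraries hold other discs was not tested.

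Markers of tissues outside the disc differed between libraries too. The 5 fat body markers, genes of larval serum proteins and fat body proteins, summed to 39.7 and 50.2 CPM in the X Plus wild type, 650 and 7679 CPM in Fd5-5, 17.7 to 12604 CPM in delta PCP, 1.87 to 7847 CPM in delta HpoC, 3.02 to 391 CPM in delta HpoN+PH and 13.9 to 100.2 CPM in delta D. On the 6000 they summed to 11.7 to 22.5 CPM in wild type, 565 to 11075 CPM in delta A and 1.59 to 304 CPM in the other mutants. The 5 salivary gland markers summed to 27.2 and 69.4 CPM in the X Plus wild type, 1.16 to 8.08 CPM in the 6000 wild type and 58.9 to 167 CPM in delta A. The salivary gland factor gene fkh was at 0 in at least 1 library of 10 of the 12 groups.

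Some libraries were nearer another label than their own, by the mean Spearman correlation of log2 CPM over all tested genes. These 17 were all of delta HpoC, delta B and delta E, delta HpoN+PH 1 and delta PCP 1, 2 and 5. Delta PCP 5 had a mean rho of 0.919 with the other delta PCP libraries and 0.989 with the X Plus wild type, whose 2 libraries had 0.992 with each other. Delta B 4 had 0.919 with its own label and 0.983 with the 6000 wild type, and delta E 4 had 0.911 with its own and 0.994 with delta F. Whether such libraries differ from their label in tissue or in genotype was not tested, and every X Plus comparison with wild type rests on the 2 wild-type libraries described above.

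**Figure D1:**
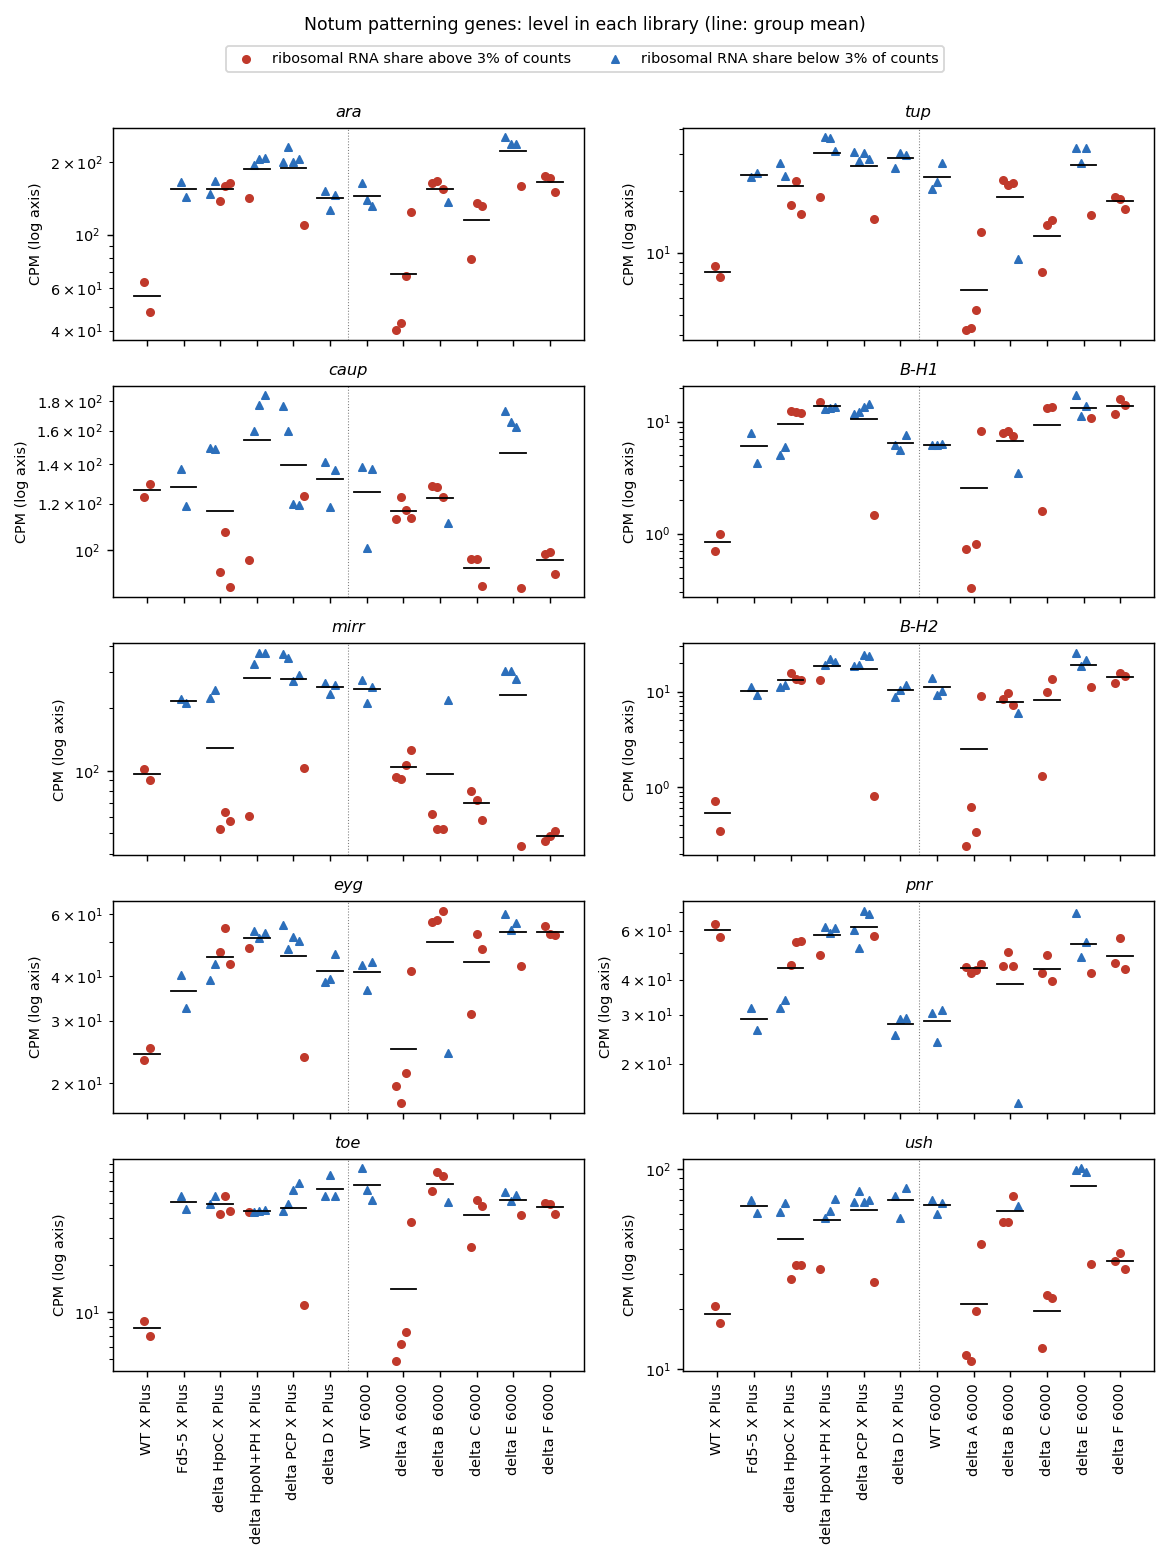
Level of each notum patterning gene in every library, in CPM (counts scaled to library size) on a log axis, by group, with the X Plus groups left of the dotted line and the 6000 groups right of it. Points are libraries, coloured by ribosomal RNA class, and lines are group means. In the X Plus wild type the B-H2 points stand at 0.344 and 0.718 CPM against 9.13 to 13.9 CPM in the 6000 wild type.

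Levels are counts scaled to library size by TMM (CPM). The Iroquois gene ara was the most abundant of the 10 per length, with a median over the 42 libraries of 51.9 CPM per kb of its longest transcript. It was followed by mirr at 43.6, caup at 28.5, toe at 20.7 and eyg at 14.8 CPM per kb. Lower stood pnr at 11.8, ush at 9.37, tup at 6.60, B-H2 at 3.65 and B-H1 at 3.03 CPM per kb. The span from the lowest to the highest library was 2.14-fold for caup and 104-fold for B-H2, whose counts went from 7 to 834.

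The 2 wild types share a genotype label but differ in sequencer, in ribosomal RNA class and in the level of muscle markers. They differed for most of these genes, and sequencer and class cannot be told apart between them. In the 6000 wild type, ara, toe, tup, B-H1, B-H2 and ush were higher and pnr was lower than in the X Plus wild type, 7 of 10 past an adjusted p of 0.05 in edgeR's quasi-likelihood test over all 42 libraries. Of all 11294 genes tested, 24.7% passed, 11.0% higher and 13.7% lower. B-H2 had a log2 fold change of 4.34 (SE 1.14, adjusted p = 0.00995), toe 3.05 (SE 0.612, adjusted p = 0.00187) and pnr −1.08 (SE 0.284, adjusted p = 0.00995). The median log2 fold change was 1.45 over the 10 genes and −0.04 over all genes. Without X Plus wild type 2, edgeR called 0 of the 10 (0.36% of all genes), and without wild type 1 it called 2 (3.72%). Since all 5 comparisons on the X Plus use the same 2 wild-type libraries, their results share them. In bulk RNA, fewer notum cells in a library and less of a transcript per cell cannot be told apart.

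Among the Iroquois genes, only ara passed the threshold between the wild types in edgeR (log2 1.37, SE 0.326, adjusted p = 0.00542). The log2 difference of mirr was of like size with a larger error and did not pass (1.36, SE 0.717, adjusted p = 0.14). The level of ara was 48 and 63.8 CPM in the X Plus wild type and 131, 139 and 163 CPM in the 6000 wild type. Fd5-5 had 143 and 166 CPM, delta D 126, 146 and 152 CPM, and delta HpoC 138, 147, 158, 163 and 167 CPM. Every library of these mutants was above both X Plus wild-type libraries and within 126 to 167 CPM.

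In delta HpoN+PH ara stood at 142, 194, 207 and 208 CPM, and in delta PCP at 110, 200, 201, 206 and 230 CPM, the lowest being the library of the higher ribosomal RNA class in each. The log2 fold changes of ara against the X Plus wild type ran from 1.33 (SE 0.256, adjusted p = 0.00295) in delta D to 1.75 (SE 0.248, adjusted p = 0.000396) in delta PCP, all 5 past the threshold. On the 6000, ara fell in delta A (40.2, 43.0, 67.3 and 124 CPM; log2 −1.10, SE 0.307, adjusted p = 0.0071). The delta A libraries all lay below wild type, and library 4 stood apart from the other 3.

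Against the 6000 wild type, ara was not past the threshold in delta B, delta C, delta E or delta F. Delta E had 158, 237, 238 and 253 CPM (log2 0.61, SE 0.313, adjusted p = 0.277), and its 3 lower-class libraries were above all wild-type libraries.

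Its neighbour caup differed less. It stood at 123 and 130 CPM in the X Plus wild type and at 101, 138 and 139 CPM in the 6000 wild type, where the log2 difference was −0.01 (SE 0.25, adjusted p = 0.994). In none of the 10 mutants did caup pass the threshold in edgeR, its log2 fold changes running from −0.46 (delta C and delta F) to 0.28 (delta HpoN+PH). At an unadjusted p under 0.05, and by DESeq2, it passed in 2, delta C and delta F. Its sign depended on scaling. With the trend of counts on transcript length removed from each library, caup had log2 −0.68 in Fd5-5 and −0.75 in delta D, and 0.69, 0.57, 0.86 and 0.48 in delta A, delta B, delta C and delta F, all past the threshold. The same scaling gave −0.71 for caup in the 6000 wild type over the X Plus wild type.

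The third Iroquois gene, mirr, followed the ribosomal RNA class of the library. It was read at 43.7 to 126 CPM in the 21 libraries of the higher class and at 213 to 369 CPM in the 21 of the lower class, and it was the only gene of the 10 whose classes did not overlap. Within delta HpoC, the lower-class libraries 1 and 2 had 224 and 246 CPM, and the higher-class libraries 3, 4 and 5 had 52.4, 63.7 and 57.3 CPM. Delta B had 62.2, 52.4 and 52.3 CPM in libraries 1 to 3 and 220 CPM in library 4. Delta E had 303, 301 and 278 CPM in libraries 1 to 3 and 43.7 CPM in library 4, so that the class separated libraries of the same genotype in both directions.

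With genotype in the model, mirr was lower in the higher class by log2 −2.03 (SE 0.125, adjusted p = 3.12e-10) on the X Plus and −2.40 (SE 0.183, adjusted p = 1.17e-08) on the 6000, where 66.9% and 56.4% of all genes passed. Fitted without the class, mirr fell in delta A (93.0, 91.3, 106 and 126 CPM; log2 −1.27, SE 0.518, adjusted p = 0.0437), delta C (80.1, 72.2 and 58.2 CPM; log2 −1.84, SE 0.575, adjusted p = 0.00992) and delta F (46.1, 48.6 and 51.4 CPM; log2 −2.41, SE 0.587, adjusted p = 0.004). All 10 libraries of these 3 mutants are of the higher class and lay below the wild-type values of 213, 253 and 272 CPM. With the class as a term, the log2 fold changes were 1.13 in delta A, past the threshold, 0.57 in delta C and 0.00 in delta F, neither past it. The class effect in that model comes from delta B and delta E, whose libraries span both classes. On the X Plus mirr passed the threshold in 0 of 5 mutants by edgeR and by DESeq2, and in 2 at an unadjusted p under 0.05, with log2 fold changes from 0.41 to 1.54. With the class as a term it had −0.85 in Fd5-5 and −0.74 in delta HpoC, both past it.

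**Figure D2:**
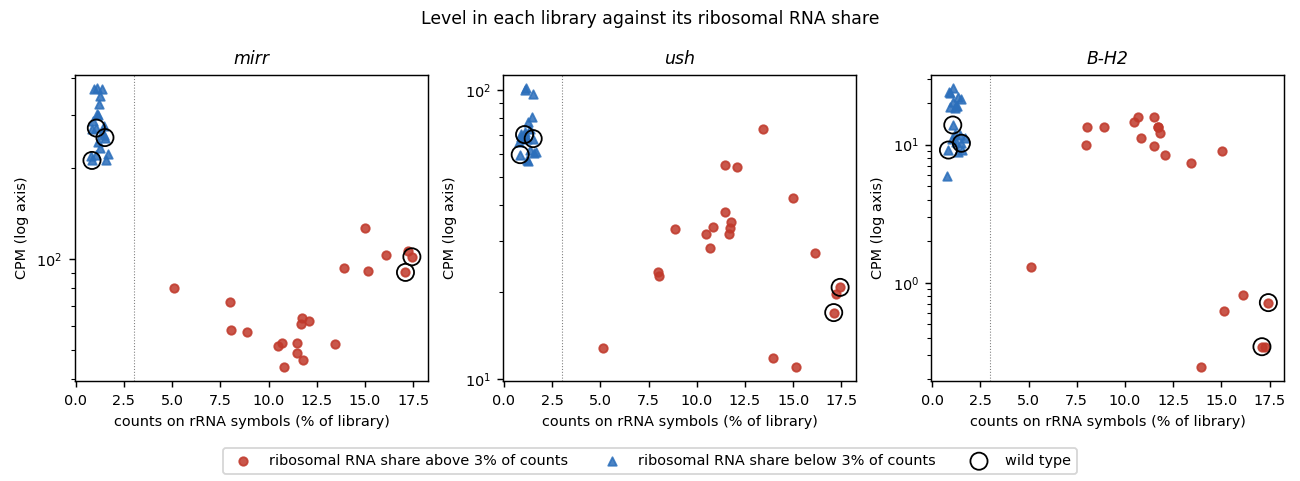
Level of mirr, ush and B-H2 (CPM, log axis) against the percentage of counts on rRNA symbols in each of the 42 libraries, with the 5 wild-type libraries ringed. For mirr the classes to the left and right of the dotted line at 3% do not overlap, whereas B-H2 is at 1.31 CPM or less in 7 libraries of the higher class and at 7.33 CPM or more in the other 14.

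The Pax gene toe stood at 7.04 and 8.77 CPM in the X Plus wild type and at 52.2, 60.5 and 83.9 CPM in the 6000 wild type. The mutants of the X Plus had 42.9 to 75.5 CPM in every library except delta PCP 5, at 11.2 CPM. Against their wild type, log2 fold changes of toe ran from 2.48 (SE 0.463, adjusted p = 0.00328) in delta HpoN+PH to 2.97 (SE 0.486, adjusted p = 0.000909) in delta D, past the threshold in all 5, with no overlap of libraries. On the 6000, toe fell in delta A, where it was read at 4.87, 6.27, 7.5 and 37.8 CPM (log2 −2.24, SE 0.516, adjusted p = 0.00279). Here too library 4 stood nearer wild type than the other 3, and no library reached the wild-type range. Delta C had 26.2, 52.3 and 48 CPM and did not pass.

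Its paralog eyg moved the same way over a smaller range. It stood at 23.2 and 25.1 CPM in the X Plus wild type and at 36.6, 43.0 and 43.8 CPM in the 6000 wild type, a difference that did not pass (log2 0.77, SE 0.322, adjusted p = 0.0696). It rose in 4 of the 5 X Plus mutants, from log2 0.77 (SE 0.257, adjusted p = 0.0398) in delta D to 1.09 (SE 0.251, adjusted p = 0.0155) in delta HpoN+PH. In Fd5-5 (32.5 and 40.4 CPM) the log2 fold change of 0.59 did not pass (SE 0.276, adjusted p = 0.16). It fell in delta A (19.6, 17.5, 21.2 and 41.5 CPM; log2 −0.75, SE 0.305, adjusted p = 0.0429), where library 4 lay inside the wild-type range.

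The LIM homeodomain gene tup was read at 7.61 and 8.57 CPM in the X Plus wild type and at 20.4, 22 and 27.1 CPM in the 6000 wild type. It rose in all 5 X Plus mutants, from log2 1.38 (SE 0.308, adjusted p = 0.0132) in delta HpoC to 1.91 (SE 0.324, adjusted p = 0.00161) in delta HpoN+PH. Every library of these mutants, at 14.6 CPM or more, was above the wild type. On the 6000, tup fell in delta A (4.20, 4.30, 5.27 and 12.6 CPM; log2 −1.85, SE 0.387, adjusted p = 0.00178) and in delta C (8.05, 13.6 and 14.4 CPM; log2 −0.97, SE 0.414, adjusted p = 0.0464), with no library of either inside the wild-type range. With the class as a term neither passed (log2 −1.91, adjusted p = 0.0992 in delta A, and −1.03, adjusted p = 0.313 in delta C).

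The Bar genes had the widest range. B-H2 was read at 0.718 and 0.344 CPM in the X Plus wild type, 28 and 9 counts, and at 13.9, 9.13 and 10.2 CPM in the 6000 wild type. Fd5-5 had 11.1 and 9.19 CPM, delta D 8.88, 10.4 and 11.7 CPM, delta HpoC 11.2, 11.8, 15.9, 13.5 and 13.4 CPM, delta HpoN+PH 13.4, 19.0, 22 and 20.3 CPM, and delta PCP 18.7, 19.1, 24.0, 23.5 and 0.815 CPM. Only delta PCP 5 was near the wild type of its sequencer.

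The log2 fold changes of B-H2 on the X Plus were 4.21 (SE 0.9, adjusted p = 0.0109) in Fd5-5, 4.59 in delta HpoC, 5.09 in delta HpoN+PH, 4.98 in delta PCP and 4.24 in delta D, all past the threshold. On the 6000, B-H2 fell in delta A, with 0.245, 0.620, 0.343 and 8.94 CPM (log2 −2.16, SE 0.892, adjusted p = 0.046). Libraries 1 to 3 had 7, 17 and 8 counts, and library 4 was just under the lowest wild-type library. Delta C divided likewise, into 1.31 CPM in library 1 and 9.95 and 13.5 CPM in the other 2, and did not pass.

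Its paralog B-H1 stood at 0.692 and 0.995 CPM in the X Plus wild type and at 6.12 to 6.24 CPM in the 6000 wild type, and it rose in all 5 X Plus mutants, from log2 2.83 (SE 0.722, adjusted p = 0.0312) in Fd5-5 to 4.01 (SE 0.721, adjusted p = 0.00248) in delta HpoN+PH. In delta A it was read at 0.735, 0.328, 0.814 and 8.24 CPM, library 4 lying above wild type, and it did not pass (log2 −1.32, SE 0.794, adjusted p = 0.157). Without library 4, B-H1 passed (log2 −3.35, SE 0.595, adjusted p = 0.000435), and B-H2 had log2 −4.82 and toe −3.46.

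B-H2 was at 1.31 CPM or less in 7 libraries, namely delta A 1 to 3, both X Plus wild types, delta PCP 5 and delta C 1, and the next library, delta B 4, had 5.95 CPM. Those 7 were also the 7 lowest libraries for B-H1, toe and ara, and they held 6 of the 7 lowest for eyg, tup and ush. They held 0 of the 7 lowest for caup, mirr and pnr. All 7 belong to the higher ribosomal RNA class, and their muscle markers summed to 324 CPM or more, but delta A 4, of the same class, had muscle markers at 399 CPM and B-H2 at 8.94 CPM. The part of muscle RNA in these levels, and whether the 7 libraries differ in the tissue they hold or in label, was not tested.

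The medial factor pnr was the only gene of the 10 past the threshold with a lower level in the 6000 wild type. It was read at 57.0 and 63.4 CPM in the X Plus wild type and at 24.0, 30.3 and 31.3 CPM in the 6000 wild type. It fell in Fd5-5 (31.6 and 26.4 CPM; log2 −1.06, SE 0.246, adjusted p = 0.0178) and in delta D (25.3, 29.0 and 29.0 CPM; log2 −1.12, SE 0.219, adjusted p = 0.00326), with no overlap. Delta HpoC had 31.6, 34.0, 45.1, 54.7 and 55.0 CPM, the first 2 being of the lower class. All 5 lay below wild type, and the log2 fold change of −0.46 did not pass (SE 0.199, adjusted p = 0.29). In delta HpoN+PH (48.9 to 61.8 CPM) and delta PCP (51.8 to 70.8 CPM) its log2 fold changes were −0.07 and 0.03, and the libraries overlapped wild type. On the 6000, pnr passed in 0 of 5 mutants by edgeR, in 1 by DESeq2 (delta E) and in 2 at an unadjusted p under 0.05 (delta E and delta F). Every library of delta A (42.2 to 45.5 CPM), delta C (39.7 to 49.0 CPM), delta E (42.3 to 69.2 CPM) and delta F (43.5 to 56.4 CPM) lay above wild type. The largest of these log2 fold changes was 0.90 in delta E (SE 0.287, adjusted p = 0.0815). Without the libraries of the smaller ribosomal RNA class of each label, a setting chosen after seeing the data, it was 1.01 (SE 0.137, adjusted p = 0.000139). In the planned fit of the lower class alone it was 0.99 (SE 0.168, adjusted p = 0.0135). With the length trend removed, pnr passed in delta A (log2 1.26), delta B (0.95), delta C (1.64) and delta F (1.43).

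Its partner ush was read at 16.9 and 20.7 CPM in the X Plus wild type and at 59.7, 67.9 and 70.1 CPM in the 6000 wild type. It rose in Fd5-5 (69.8 and 60.7 CPM; log2 1.79, SE 0.476, adjusted p = 0.0391), delta HpoN+PH, delta PCP and delta D, up to log2 1.90 in the last (SE 0.453, adjusted p = 0.0115). In delta HpoC (61.2, 67.6, 28.4, 33.3 and 33.0 CPM) the log2 fold change of 1.24 did not pass (SE 0.415, adjusted p = 0.129), the first 2 libraries being of the lower class and the other 3 of the higher.

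On the 6000, ush fell in delta A (11.8, 11, 19.6 and 42.3 CPM; log2 −1.66, SE 0.415, adjusted p = 0.00396) and in delta C (12.8, 23.4 and 22.6 CPM; log2 −1.77, SE 0.456, adjusted p = 0.00279). With the class as a term neither passed (log2 −0.79, adjusted p = 0.47, and −0.90, adjusted p = 0.353), and with the length trend removed delta C had log2 0.10. Between classes with genotype in the model, ush was lower in the higher class by log2 −1.12 (SE 0.104, adjusted p = 5.15e-08) on the X Plus, and the −0.88 on the 6000 did not pass (SE 0.471, adjusted p = 0.124).

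**Figure D3:**
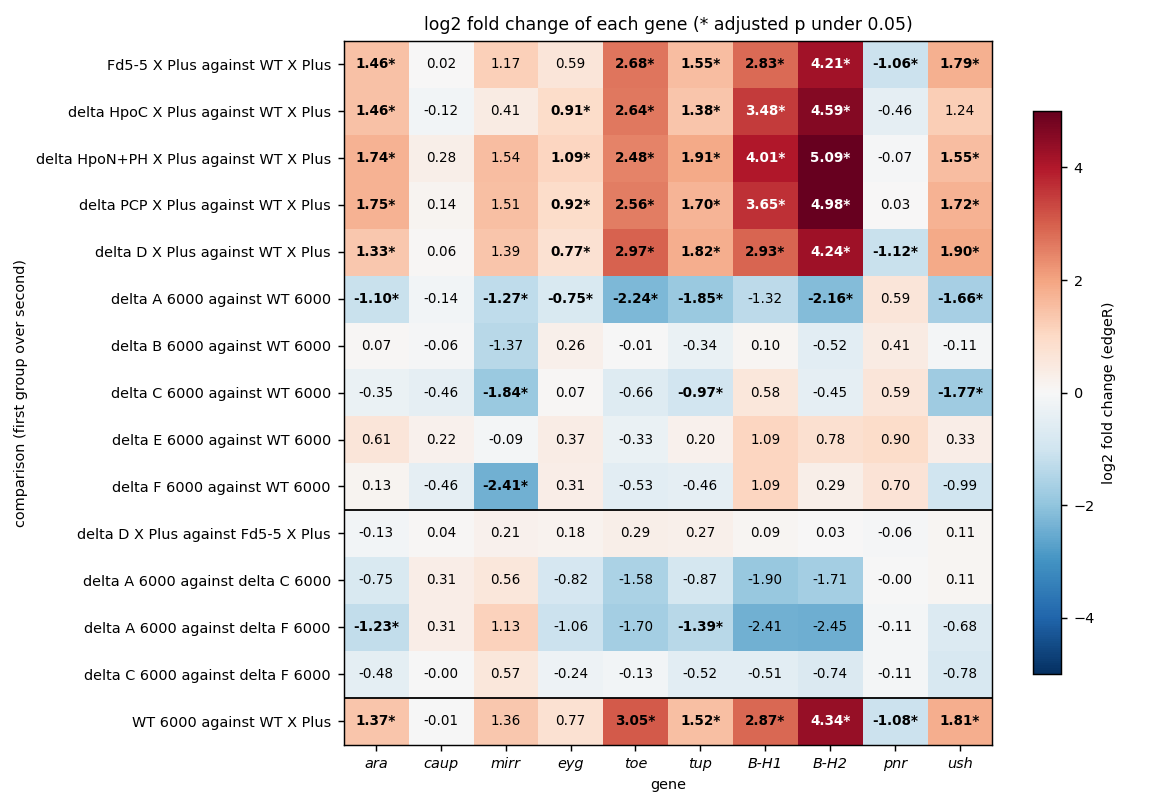
The log2 fold change of each gene (columns) in each of the 15 comparisons (rows, first group over second), from edgeR. Bold values with an asterisk have an adjusted p under 0.05. The 5 mutants of the X Plus and the 6000 wild type share the sign of B-H2, from 4.21 to 5.09, against the same wild-type libraries, and delta A has 7 values that passed below 0.

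Counted by comparison, Fd5-5 had 6 of the 10 genes higher and 1 lower, where 4.47% of all genes were called, 3.7% higher and 0.77% lower. The fat body markers were also higher in both Fd5-5 libraries, at 650 and 7679 CPM against 39.7 and 50.2 CPM in wild type, and their part in the result was not tested. Delta HpoC had 6 higher and 0 lower, where 3.82% of all genes were called, 3.04% higher and 0.78% lower. Delta HpoN+PH had 7 higher and 0 lower, with 4.84% of all genes called, 3.76% higher and 1.09% lower. Delta PCP had 7 higher and 0 lower, with 3.61% called, 3.53% higher and 0.0835% lower. Delta D had 7 higher and 1 lower, with 26.5% called, 11.2% higher and 15.3% lower. The median log2 fold change of the 10 genes was 1.5, 1.31, 1.65, 1.71 and 1.60 in the same order, against medians over all genes of 0.01, 0.03, −0.02, 0.01 and −0.05. At an unadjusted p under 0.05 each of the 5 had 8 genes. Without the 17 libraries nearer another label, the counts were 8 higher and 1 lower in Fd5-5 and in delta D, 9 higher in delta HpoN+PH and 8 higher in delta PCP, where 62.8%, 68.3%, 63.9% and 51.6% of all genes were called, and delta HpoC could not be fitted. Every X Plus mutant library left in that setting was of the lower ribosomal RNA class, and both wild-type libraries were of the higher. Class and genotype therefore cannot be told apart in any of these larger counts.

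These counts rested on both wild-type libraries. Without wild type 2 of the X Plus, edgeR called 0 genes in Fd5-5 and delta HpoC, 1 in delta HpoN+PH and delta PCP and 2 in delta D, and without wild type 1 it called 1, 3, 3, 2 and 5. In these fits the remaining library was taken to vary like the other groups, and 0.498% to 3.96% of all genes were called.

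Libraries of the same ribosomal RNA class could be compared in 3 of the X Plus mutants. Delta HpoC 3 to 5 against wild type, all of the higher class, had ara (log2 1.49), eyg (1.05), toe (2.62), tup (1.21), B-H1 (3.91), B-H2 (4.72) and ush (0.78) higher and caup (−0.37) and mirr (−0.70) lower, each past the threshold, with 46.4% of all genes called, 24.6% higher and 21.8% lower. Delta HpoN+PH and delta PCP have only 1 library each in the class, so their spread comes from wild type and delta HpoC, and the lone library was taken to vary like those. On that footing delta HpoN+PH 1 had the same 7 genes higher and mirr lower, by log2 −0.62, with 35.5% of genes called, 20.3% higher and 15.2% lower. Delta PCP 5, the library nearest wild type, had ara past the threshold, at log2 0.99 (SE 0.158, adjusted p = 0.0144), with 2.2% of genes called, 2.11% higher and 0.0897% lower. Its muscle marker sum of 478 CPM was the highest among the mutant libraries of the X Plus. The log2 fold change of B-H2 in these fits was 4.63 for delta HpoN+PH 1 and 0.58 for delta PCP 5 (SE 0.396), values of single libraries that do not stand for their genotype.

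**Figure D4:**
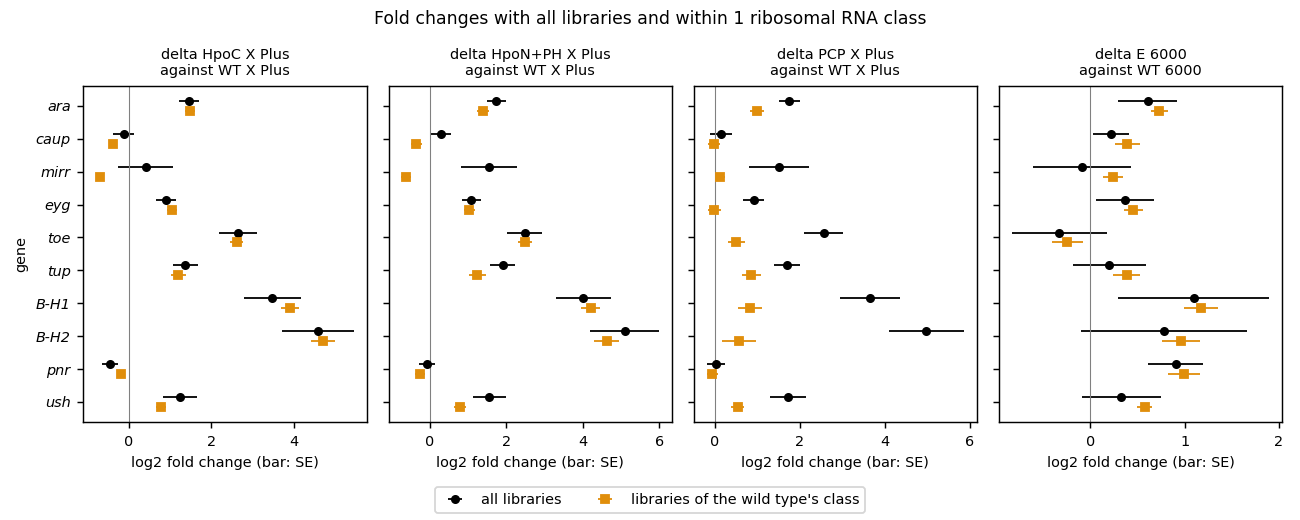
The log2 fold change of each gene with its standard error in 4 mutants against the wild type of their sequencer, with all libraries (black circles) and with only the libraries of the wild type's ribosomal RNA class (orange squares; 3 libraries of delta HpoC, 1 of delta HpoN+PH, 1 of delta PCP and 3 of delta E). B-H2 is at 4.59 and 4.72 in delta HpoC but at 4.98 and 0.58 in delta PCP.

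On the 6000, delta A had 0 genes higher and 7 lower, where 58.4% of all genes were called, 30.4% higher and 28.1% lower. The fat body and salivary gland markers were higher in all 4 delta A libraries, at 565 to 11075 CPM against 11.7 to 22.5 CPM and at 58.9 to 167 CPM against 1.16 to 8.08 CPM, with 5 of 5 and 4 of 4 tested past the threshold. Their part in the fall of the 7 genes was not tested. The median log2 fold change was −1.30 over the 10 genes and 0.05 over all genes. Without delta A 4 it had 8 lower (59.5% of all genes called, 29.9% higher and 29.6% lower), and without any of the other 3 libraries 4 lower. Delta C had 0 higher and 3 lower, with 65.8% of all genes called, 33.8% higher and 32.0% lower. Delta F had 0 higher and 1 lower, with 56.7% called, 28.2% higher and 28.5% lower. For delta C and delta F the share of members called is below that of all genes. With the class as a term, edgeR called 1 gene in delta A, mirr higher, and 0 in delta C and delta F, where 4.22%, 13.0% and 0.281% of all genes were called. The higher shares were 2.36%, 5.72% and 0.155% and the lower ones 1.86%, 7.3% and 0.126%.

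Delta B and delta E had 0 genes past the threshold in edgeR. Of all genes 32.2% were called in delta B, 19.4% higher and 12.8% lower, and 5.13% in delta E, 2.88% higher and 2.24% lower. At an unadjusted p under 0.05 each had 1 gene, mirr in delta B (log2 −1.37, SE 0.519, adjusted p = 0.0511) and pnr in delta E, and the DESeq2 Wald test called 1 in each. Delta E 1 to 3 could be compared with wild type within the lower class. There B-H1 (log2 1.17), pnr (0.99), B-H2 (0.96), ara (0.73), ush (0.57) and eyg (0.45) were higher, 6 of 10 with 14.4% of all genes called, 6.53% higher and 7.92% lower, and mirr, at log2 0.24, did not pass (adjusted p = 0.185). Delta B 4, the only library of its label in that class, had a log2 fold change of −1.33 for tup (9.28 CPM against 20.4 to 27.1 CPM), the lowest of the 10. In that fit 0.0% of all genes were called by edgeR, so the absence of calls among the 10 says nothing about them.

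Mutants with every library in the same class were also compared with each other. Between delta D and Fd5-5 edgeR called 0 genes (0.613% of all genes, 0.269% higher and 0.343% lower; 0 at an unadjusted p under 0.05 and 0 by DESeq2), and the log2 fold changes ran from −0.13 (ara, SE 0.244) to 0.29 (toe, SE 0.43). Between delta C and delta F it also called 0 (0.213% of all genes, 0.135% higher and 0.0774% lower; again 0 unadjusted and 0 by DESeq2), with log2 fold changes from −0.78 for ush (SE 0.446) to 0.57 for mirr (SE 0.56). Delta A had ara (log2 −1.23, SE 0.308, adjusted p = 0.0286) and tup (log2 −1.39, SE 0.385, adjusted p = 0.0442) lower than delta F, 2 of 10, where 4.97% of all genes were called, 3.49% higher and 1.48% lower. Against delta C it had 0 called (6.17% of all genes, 4.23% higher and 1.94% lower; 5 of the 10 at an unadjusted p under 0.05 and 1 by DESeq2). Without delta A 4 the counts were 7 lower against delta F (8.62%) and 6 lower against delta C (7.01%).

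Ratios within a library do not depend on its scaling to library size. Their size reflects transcript length as well as abundance, so only their movement between libraries is described. The trend of counts on transcript length differed between libraries too, and some pairs differ in length, such as ush (6084 bases) and pnr (3840 bases). The part of that trend in the movement was not tested. Counts of mirr over caup were 1.5 to 2.42 in the lower class and 0.409 to 1.11 in the higher class, with no overlap. Caup over ara was 1.93 and 2.70 in the X Plus wild type and 0.722 to 1.05 in the 6000 wild type. In delta A it was 0.914 in library 4 and reached 2.86 among the others.

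The ratio of toe to eyg was 0.281 and 0.377 in the X Plus wild type and 1.19 to 1.95 in the 6000 wild type. That of ush to pnr, the restraining partner over the GATA factor, was 0.297 and 0.327 in the X Plus wild type, 2.17 to 2.49 in the 6000 wild type, 2.21 and 2.30 in Fd5-5 and 1.97 to 2.91 in delta D. In delta HpoN+PH it was 0.651 to 1.16 and in delta PCP 0.476 to 1.5, between the wild types and overlapping neither. In delta HpoC, toe over eyg was 0.914 to 1.28 and ush over pnr 0.600 to 1.99. Both ratios were low in the X Plus wild type and in part of delta A, whose toe over eyg was 0.249, 0.358, 0.353 and 0.912 and whose ush over pnr was 0.264, 0.260, 0.453 and 0.928, library 4 being the highest. Ush over pnr was also low in delta C, at 0.301 to 0.571, and was 0.673 to 0.756 in delta F. Its median was 0.608 in the higher ribosomal RNA class and 1.97 in the lower, and the classes overlapped.

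**Figure D5:**
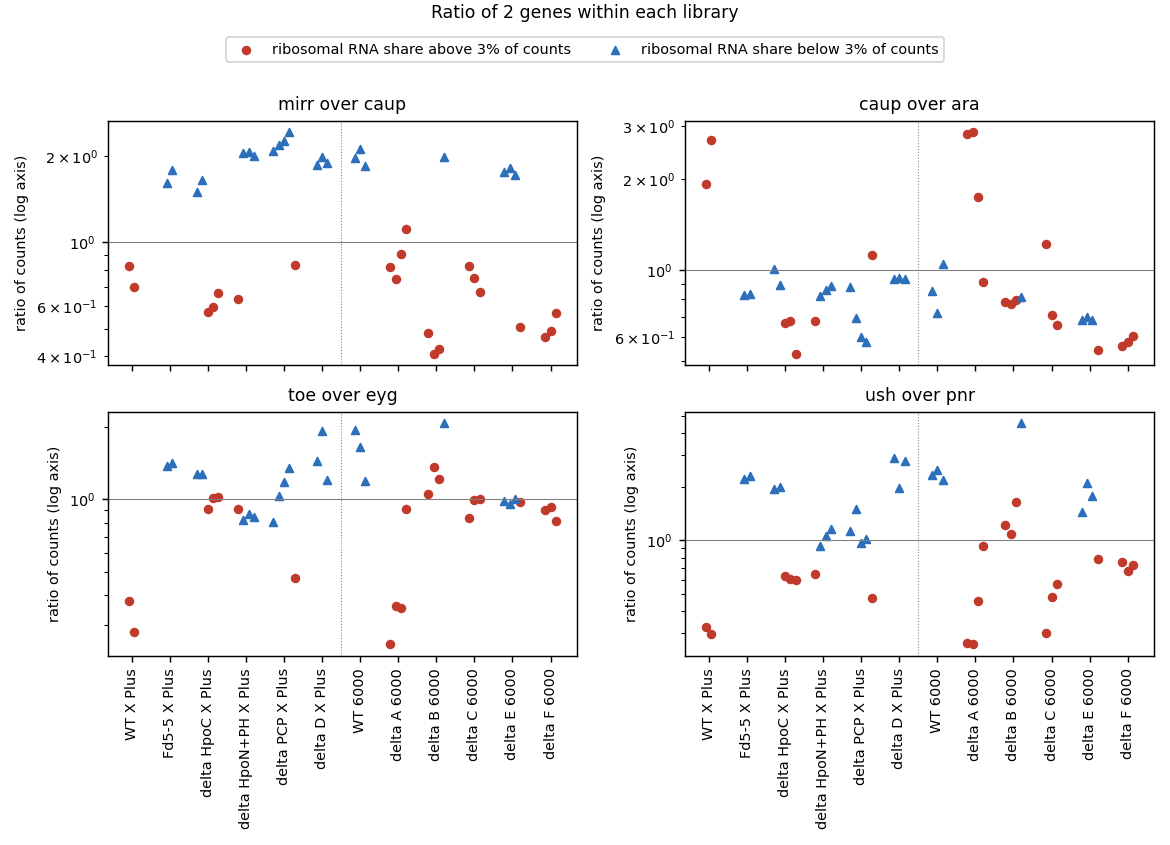
Ratio of the counts of 2 genes within each library (log axis), by group, coloured by ribosomal RNA class, with the X Plus groups left of the dotted line. The mirr to caup ratio separates the classes at 1.11 and 1.5, and the ush to pnr ratio of wild type is 0.297 and 0.327 on the X Plus and 2.17 to 2.49 on the 6000.

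Across the 42 libraries, which share class and label effects, adjacent paralogs differed in how far they moved together. Pearson's r of log2 CPM was 0.95 for B-H1 and B-H2, 0.83 for eyg and toe, 0.80 for caup and mirr and 0.33 for ara and caup. Of 11293 other genes, B-H2 ranked first for B-H1 and toe ranked 30 for eyg, but caup ranked 2818 for ara. In the other direction B-H1 ranked 9 for B-H2, eyg 223 for toe and ara 3781 for caup. For caup, mirr ranked 261, and for mirr, caup ranked 1765. The genes most like the mean of the 10 members were zfh1 (r = 0.96), dysf (0.93), pk (0.93), kn (0.93) and Pgant7 (0.93). Of these, zfh1 is also in the list of myoblast markers and kn in that of wing pouch markers. The mean does not stand for every member, since r with it was 0.95 for ara and tup but 0.53 for mirr, 0.52 for caup and 0.19 for pnr. After the group means were subtracted, the genes most like the mean were Eip75B (0.91), pk (0.91), zfh1 (0.89), sr (0.89) and CG9650 (0.89).

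Genes that act upstream of the notum factors were read beside them. Of 18 genes of the EGF receptor, Dpp, Wingless and JAK/STAT pathways, 5 rose in Fd5-5, 4 in delta HpoC, 5 in delta HpoN+PH and 4 in delta PCP, and 0 fell, where 4.47%, 3.82%, 4.84% and 3.61% of all genes were called. In Fd5-5 these were Med (log2 3.53), a Dpp pathway Smad, dome (3.21), the JAK/STAT receptor, its ligands upd1 (3.15) and upd2 (3.36), and 1 more. In delta D 10 rose and 1 fell, where 11.2% of all genes were higher and 15.3% lower. The 6000 wild type had 10 higher and 0 lower than the X Plus wild type, where 11.0% of all genes were higher, with Med at log2 3.71, dome at 3.33 and upd1 at 3.34. Delta A had 12 lower and 1 higher, including brk (−1.97), a repressor of Dpp targets, tkv (−0.80), a Dpp receptor, dpp itself (−2.27) and vn (−2.34), which encodes Vein. Delta C had 10 lower and 1 higher. Of all genes, 58.4% and 65.8% were called in delta A and delta C.

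Downstream, among 11 proneural and bristle genes, h rose in all 5 X Plus mutants, from log2 1.02 to 1.35. The shares of all genes called higher there are given above by comparison. The mean of h was 52.2 CPM in the X Plus wild type, 106 to 133 CPM in the X Plus mutants and 121 CPM in the 6000 wild type. Dr averaged 15.9 CPM in the X Plus wild type and 139 to 363 CPM in the X Plus mutants. By mean level sr was also higher in all 5, and ac and emc were lower. On the 6000, where ara and tup were lower in delta A, the proneural genes ac (log2 1.61) and sc (1.78) and the bristle precursor factor sens (1.14) were higher there. In delta A 30.4% of all genes were higher and 28.1% lower. By mean level l(1)sc, ase, emc and Dl were also higher than in wild type, and h, N, sr and Dr were lower. Of these, l(1)sc was near the floor, at means of 0.207 CPM in delta A and 0.0701 CPM in the 6000 wild type. Dr averaged 24.2 CPM against 366 CPM, N 899 against 1448 CPM and h 68.2 against 121 CPM. The gene sc was also higher in delta B, delta C, delta E and delta F, by log2 1.44, 2.41, 1.25 and 1.97. Of all genes, 32.2%, 65.8%, 5.13% and 56.7% were called there. Its level differed within labels that span the ribosomal RNA classes, at 17.1 to 66.3 CPM in delta B and 18.6 to 92.0 CPM in delta HpoC. Groups wholly of the lower class had 16.1 to 21.7 CPM (6000 wild type), 15.8 and 20.1 CPM (Fd5-5) and 15.5 to 22.4 CPM (delta D), and those wholly of the higher class 52.0 and 62.6 CPM (X Plus wild type), 57.5 to 72.6 CPM (delta A), 90.5 to 102 CPM (delta C) and 67.3 to 77.9 CPM (delta F). The mean level of ac was 4.77 CPM in the 6000 wild type, 5.58 CPM in Fd5-5 and 5.15 CPM in delta D. It was 14.7 CPM in the X Plus wild type, 15.0 CPM in delta A, 19.7 CPM in delta C and 12.6 CPM in delta F. The part of the class in the calls of ac and sc was not tested. Between the wild types ac was lower on the 6000, by log2 −1.62. Of 14 wing and body wall selector genes, 0 rose and 10 fell in delta A, where 28.1% of all genes were lower, among them rn (−2.81) and nub (−1.91), which act in the pouch, and tsh (−1.21), which acts in hinge and notum. In Fd5-5, where 3.7% of all genes were higher, exd (1.94), a Hox cofactor, and rn (3.23) rose. Of 9 tested related factors and cofactors, 3 rose in Fd5-5, namely so (5.51) and eya (5.29), which act together in eye determination, and the GATA factor grn (3.55). The eye disc markers, which include so and eya, summed to 30.6 and 34.1 CPM in the X Plus wild type, 168 and 198 CPM in Fd5-5, 31.8 to 125 CPM in delta A and 181 to 205 CPM in the 6000 wild type. Within that list ey stayed near the floor, at means of 0.549 CPM in the X Plus wild type and 0.276 CPM in the 6000 wild type. Its highest group mean was 1.17 CPM, in Fd5-5. The part of the eye disc markers in these results was not tested. The genes so, eya and grn fell in delta A, by log2 −3.43, −3.38 and −3.14, among 6 of 10 that fell there, again beside 28.1% of all genes.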

How the data were processed

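RNA of 42 wing disc libraries was sequenced as paired reads of 150 bases from 10 ng of total RNA, per the labels' protocols. The authors deposited estimated counts per gene from Salmon 1.80 after FastQC 0.10 and Trimmomatic 0.33, with edgeR also named and build dm6, per the submitters' processing notes. Whether strand was kept is not given in the sources used here.

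The deposited estimated counts were rounded. Symbols were matched to Ensembl release 115 for 17083 of 17208 genes. Groups follow the genotype and sequencer labels. edgeR 4.0.16 in R 4.3.3 (TMM, filterByExpr, quasi-likelihood test, Benjamini-Hochberg over all genes tested, threshold 0.05) was fitted per sequencer, on 10775 genes for the X Plus and 10338 for the 6000, each with 15 residual degrees of freedom, and on all 42 libraries (11294 genes) for the wild types. Biological coefficients of variation were 49.2%, 39.4% and 45.5%. All 10 genes passed the filter in each fit. The script was tested on simulated data, where 99% of genes changed by log2 2 and 100% of those changed by log2 4 were recovered for Fd5-5 (10300 genes), and 100% of both for delta E (10015 genes). Of the genes called, 4.78% and 3.85% were unchanged ones. The simulated counts varied less between libraries than the real ones and held no class or tissue effect. Changed genes were drawn from well-counted ones only, so the shares recovered do not give the power in these data.

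Ribosomal RNA classes were set at 3% of counts. Alternatives were DESeq2 1.42.0 (size factors, Wald test), other sets of libraries, a replicate block, the class as a term, a loess correction for transcript length (span 0.3) and no filter. Libraries of the smaller class of their label were removed in an alternative chosen after seeing the data. All 10 genes are named whatever their p. Of other lists, up to 4 genes of smallest p per comparison are named, and the likeness genes are the 5 of highest r. The members and lists were chosen with earlier results of these data known.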

Additional observations from a re-analysis of the deposited data

Results flagged for a closer look

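In groups of 4 or 5 libraries, 1 library stood apart from the others of its group by Dixon's gap test at the 95% level in 20 of 60 tests of a gene in a group, where chance gives about 1 in 20. Several of these genes move together across libraries, so the 60 tests are not independent and the excess has no p-value. The 20 fell on 5 libraries, and 15 of them on a library of the smaller ribosomal RNA class of its label.

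In delta A, library 4 was the highest for eyg (41.5 CPM), toe (37.8 CPM), tup (12.6 CPM), B-H1 (8.24 CPM) and B-H2 (8.94 CPM), although it shares its class with the other 3. In delta B, library 4 was the highest for mirr (220 CPM) and the lowest for eyg (24.3 CPM), tup (9.28 CPM) and pnr (14.4 CPM). In delta E, library 4 was the lowest for ara (158 CPM), caup (86.1 CPM), mirr (43.7 CPM) and ush (33.4 CPM). Library 1 of delta HpoN+PH was the lowest for mirr (60.8 CPM). In delta PCP, library 5 was the lowest for ara (110 CPM), eyg (23.6 CPM), tup (14.6 CPM), B-H1 (1.46 CPM), B-H2 (0.815 CPM) and ush (27.2 CPM).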

How the results depend on the processing

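Of 2470 values of single genes under an alternative, 2119 kept the side of the threshold they had, 190 lost it, 144 gained it and 17 changed sign with a call in at least 1 setting. A further 107 changed sign without a call in either. With the length trend removed, the changed signs were caup in Fd5-5 (−0.68), delta D (−0.75), delta A (0.69), delta B (0.57), delta C (0.86) and delta F (0.48), and ush in delta B (0.91) and delta C (0.10). With the class as a term they were mirr in Fd5-5 (−0.85), delta HpoC (−0.74), delta A (1.13), delta C (0.57) and between the wild types (−0.78). Without the smaller class of each label mirr had −0.74 in delta HpoC. Within the wild type's class mirr had −0.70 in delta HpoC and −0.62 in delta HpoN+PH, and eyg −0.013 in delta PCP. The cause was not tested.

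The number of the 10 genes called moved by over 1.5 times in these cases. With only the compared groups in the fit it was 0 in delta PCP, 5 in delta C, 8 in delta F, 2 for delta A against delta C and 2 for delta C against delta F. With the class as a term it was 4 in Fd5-5, 1 in delta A, 0 in delta C and delta F, 3 for delta A against delta C, 6 for delta A against delta F and 2 between the wild types. Within the class it was 1 in delta PCP, 6 in delta E, 3 for delta A against delta C and 5 against delta F. Without the smaller class it was 2 in delta B, 5 in delta C, 2 in delta E, 4 in delta F, 5 for delta A against delta C, 7 against delta F and 1 for delta C against delta F. Without libraries nearer another label than their own it was 5 in delta C, 3 in delta F, 3 for delta A against delta C and 4 against delta F, and delta HpoC, delta B and delta E could not be fitted. With the length trend removed it was 3 in delta B, 3 in delta F, 1 for delta A against delta C and 4 against delta F. By DESeq2 it was 1 in delta B, 1 in delta E, 3 in delta F, 1 for delta A against delta C and 5 against delta F, and with its size factors in edgeR 2 in delta F and 1 for delta A against delta F. With all 42 libraries in the fit it was 1 in delta E, 2 in delta F, 1 for delta A against delta C and 5 against delta F.

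Leaving out each library in turn gave 0 to 4 genes in Fd5-5, 0 to 6 in delta HpoC, 1 to 7 in delta HpoN+PH and in delta PCP, 2 to 7 in delta D, 4 to 8 in delta A, 0 to 2 in delta B and delta E, 2 to 3 in delta C and 1 to 2 in delta F. It gave 0 to 6 for delta A against delta C, 0 to 7 for delta A against delta F, 0 in every fit for delta D against Fd5-5 and for delta C against delta F, and 0 to 7 between the wild types.

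Equal replicate numbers did not pair libraries. Of 88 same-numbered pairs the mean correlation of deviations was −0.022, and 0 of 21 pairs of groups passed in every pair. With the replicate block the calls numbered 7 in Fd5-5, 6 in delta HpoC, 7 in delta HpoN+PH, 7 in delta PCP, 8 in delta D, 7 in delta A, 0 in delta B, 3 in delta C, 1 in delta E, 2 in delta F, 2 for delta A against delta F, 0 in the other mutant pairs and 7 between the wild types. Depth limits the Bar genes most, since B-H2 had 7 to 28 counts in 6 libraries.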
